A study of Homo sapiens with 15 samples.

Results

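The 4 HOX clusters were examined as long CpG-dense stretches in which Pt-exo-seq reads can be followed from 1 end to the other. They were defined by position on hg19, and their windows covered chr7:27129601-27250300 for HOXA, a stretch of chromosome 17 from 46600201 that holds HOXB1 to HOXB13 for HOXB, chr12:54330301-54450100 for HOXC and chr2:176940001-177059800 for HOXD. Windows of 1000 bases, which overlap because each starts 900 bases after the last, were assigned to a cluster by their midpoint. This gave 134 windows for HOXA, 233 for HOXB, 133 for HOXC and 133 for HOXD, together 633 of 3373681 windows on chromosomes 1 to 22 and X. The rule uses positions alone and no read count.

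Pt-exo-seq maps platinum adducts through an exonuclease that is blocked by the bulky adduct, so that reads begin where cisplatin was bound. The 15 libraries came from 2 lines of 1 patient with high-grade serous ovarian cancer. Cisplatin kills PEO1 readily, whereas PEO4 resists it. PEO1 was left untreated or exposed to 16 µM cisplatin for some hours, PEO4 was left untreated or exposed to 16 or 32 µM, and each of the 5 groups held 3 libraries. The study chose 16 µM in PEO1 and 32 µM in PEO4 to give similar amounts of platinum on DNA. The untreated libraries give the background of the method. Nothing in the sources used here says that the 3 libraries of a group came from separate cultures, so the spread between them may be technical.

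HOX genes encode homeobox transcription factors that pattern the body axis. Their clusters are the classical targets of Polycomb, whose EZH2-containing complex places the repressive mark H3K27me3 where HOX genes are silent, while Trithorax proteins such as MLL keep them active. The clusters are also known for unusually long runs of unmethylated CpG islands. Cisplatin binds the N7 position of purines, mostly at neighbouring guanines, so the number of GG steps on either strand, counted here as GG plus CC, sets how many of its favoured sites a stretch offers. These libraries count DNA fragments. Neither Polycomb marks nor HOX transcripts were measured in them, so the label of Polycomb domain rests on general knowledge, while the CpG density can be read from the sequence.

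The clusters were CpG-dense as named. HOXA held 35.3 CpG per kb, HOXD 33.9, HOXC 29.0 and HOXB 23.8, against 9.86 over the genome. Of 28188 bins of 100 kb, 0.344% were denser than HOXA, 0.454% than HOXD, 1.09% than HOXC and 2.64% than HOXB. The ratio of observed to expected CpG was 0.531 in HOXA, 0.392 in HOXB, 0.419 in HOXC and 0.537 in HOXD, above 0.236 over the genome. Their GC content lay between 49.3% in HOXB and 52.6% in HOXC. The 500 kb on each side of a cluster were poorer in both: flank GC was 39.96% at HOXA, 44.6% at HOXB, 45.9% at HOXC and 38.9% at HOXD. The clusters also offered more GG and CC steps, 164 per kb over all 633 windows against 113 in the flanks and 104 in the genome.

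To show this composition, the first 300 bases of the window with the most GG and CC steps in each cluster are printed, on the plus strand of GRCh37 (hg19), with every run of G or C of at least 2 bases in capitals. The printed stretches are chr7:27153001-27153300 for HOXA, chr17:46723501-46723800 for HOXB, chr12:54378001-54378300 for HOXC and chr2:176957101-176957400 for HOXD. Gene labels were taken at the midpoint of each full window, which lies beyond the 300 bases printed. The HOXA midpoint lay in introns of HOXA3 and of the antisense gene HOXA-AS2. The HOXB midpoint lay in an exon of the long non-coding gene LINC03057. The HOXC midpoint lay in the noncoding gene HOXC-AS3, 349 bases from the start of HOXC10. The HOXD midpoint lay in HOXD13, near its start.
HOXA: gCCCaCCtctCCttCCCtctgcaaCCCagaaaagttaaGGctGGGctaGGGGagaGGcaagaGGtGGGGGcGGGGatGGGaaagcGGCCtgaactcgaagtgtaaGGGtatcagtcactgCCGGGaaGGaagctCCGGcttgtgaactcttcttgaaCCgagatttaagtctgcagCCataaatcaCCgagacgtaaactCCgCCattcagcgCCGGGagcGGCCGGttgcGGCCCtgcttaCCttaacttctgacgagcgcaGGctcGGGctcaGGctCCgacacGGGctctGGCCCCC
HOXB: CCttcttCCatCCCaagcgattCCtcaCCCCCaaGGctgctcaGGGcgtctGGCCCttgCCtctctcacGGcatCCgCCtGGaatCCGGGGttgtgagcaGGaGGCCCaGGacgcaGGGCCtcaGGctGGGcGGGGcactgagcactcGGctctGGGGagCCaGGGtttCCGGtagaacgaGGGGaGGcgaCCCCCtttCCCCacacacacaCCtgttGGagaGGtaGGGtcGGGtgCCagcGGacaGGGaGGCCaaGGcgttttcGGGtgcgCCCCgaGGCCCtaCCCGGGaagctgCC
HOXC: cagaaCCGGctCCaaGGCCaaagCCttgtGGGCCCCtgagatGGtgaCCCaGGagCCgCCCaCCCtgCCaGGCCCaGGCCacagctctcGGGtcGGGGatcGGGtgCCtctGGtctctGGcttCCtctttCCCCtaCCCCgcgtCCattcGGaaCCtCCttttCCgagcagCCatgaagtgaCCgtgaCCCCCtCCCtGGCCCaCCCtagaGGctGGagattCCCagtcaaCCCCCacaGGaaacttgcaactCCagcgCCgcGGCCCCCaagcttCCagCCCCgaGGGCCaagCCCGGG
HOXD: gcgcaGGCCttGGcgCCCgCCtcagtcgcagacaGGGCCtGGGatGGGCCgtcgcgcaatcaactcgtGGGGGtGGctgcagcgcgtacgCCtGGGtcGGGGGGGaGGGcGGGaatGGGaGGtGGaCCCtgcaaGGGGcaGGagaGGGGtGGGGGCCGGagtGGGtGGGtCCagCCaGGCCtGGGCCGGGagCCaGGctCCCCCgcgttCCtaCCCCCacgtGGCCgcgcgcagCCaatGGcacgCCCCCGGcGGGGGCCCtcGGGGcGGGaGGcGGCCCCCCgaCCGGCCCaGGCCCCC

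These stretches held 62, 85, 88 and 111 GG and CC steps in the same order, and the HOXD stretch was 78% GC. Over the mean of the 15 libraries, their whole windows did not lead in reads. Ranked by mean scaled count over these libraries, the HOXA window was number 128 of 134, the HOXC window 129 of 133, the HOXD window 104 of 133 and the HOXB window 88 of 233. The mean hides differences between groups. In PEO4 after 32 µM the HOXB window was at 3.36 times the genome mean and the window ranked first in HOXB at 3.22. Without cisplatin the former was already at 2.23 in PEO4, against 0.518 in PEO1. After 16 µM it was at 1.61 in PEO4 and 0.753 in PEO1. The HOXD window was at 0.755 in untreated PEO4 and 1.63 in PEO4 after 32 µM, beside 1.48 at that dose for the window ranked first in HOXD. The windows that did rank first in their cluster held fewer GG and CC steps. In HOXA this window had 94 (chr7:27217801-27218800, intron of HOXA10), in HOXB 186 (chr17:46696501-46697500, intron of HOXB7), in HOXC 192 (chr12:54376201-54377200, intron of HOXC-AS3) and in HOXD 216 (chr2:177035401-177036400, introns of HOXD3 and HAGLR). Over the windows of a cluster, the correlation of log2 mean scaled count with GG and CC steps was -0.16 in HOXA, 0.15 in HOXB, -0.09 in HOXC and 0.03 in HOXD, a description over overlapping windows that share libraries and base composition.

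The first comparison asked how many reads the clusters took relative to the rest of the genome, before and after cisplatin. Total counts, in units of 1e6 reads, ran from 27.7 to 56.6 per library with a median of 33.1, and between 8.04% and 24.8% of windows had no read in a library. The 4 clusters together held 5623 to 15558 reads. The share of reads in GC-rich windows differed between libraries, also within groups: the log2 ratio of windows with 50 to 55% GC over windows with 35 to 40% GC ran from -0.33 in PEO1 untreated replicate 1 to 0.61 in PEO1 16 µM replicate 1. Since the clusters are GC-rich, levels against windows of matched GC are given beside those as counted.

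HOXB and HOXC were read more, and HOXA less, than an average window in nearly every library. Levels are mean reads per window divided by the genome mean of the same library. HOXA lay below 1 in 15 of 15 libraries, between 0.433 and 0.793. HOXB lay above 1 in 15 of 15, between 1.07 and 1.99, and HOXC in 14 of 15, between 0.998 and 1.91. HOXD, in contrast, split by line. It stood at 0.509, 0.645 and 0.649 in untreated PEO1 and at 0.778, 0.634 and 0.602 in PEO1 after 16 µM. In PEO4 it stood at 1.39, 1.17 and 1.14 untreated, at 1.06, 1.25 and 1.13 after 16 µM, and at 1.24, 0.872 and 1.06 after 32 µM. The lowest of the 9 PEO4 libraries was above the highest of the 6 PEO1 libraries, whereas the HOXA, HOXB and HOXC ranges of the lines overlapped.

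**Figure D1:**
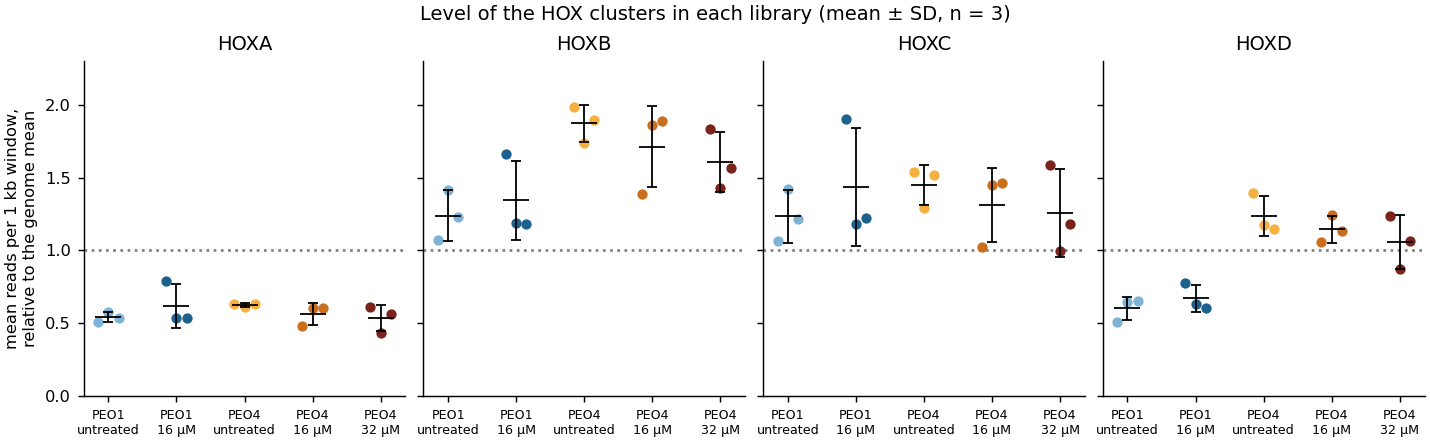
Mean reads per 1 kb window in each HOX cluster relative to the genome mean of the library (linear axis), with 1 point per library, 3 per group, and the group mean ± SD in black; the dotted line marks the genome mean. HOXA stays below the line in all 15 libraries and HOXD lies between 0.509 and 0.778 in PEO1 and between 0.872 and 1.39 in PEO4.

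Between the untreated lines, HOXD and HOXB were higher in PEO4 and no call was made for HOXA and HOXC. In edgeR's quasi-likelihood test over 28192 features (100 kb bins plus the 4 clusters, all 15 libraries in the fit), 25.1% of all features were called at an adjusted p under 0.05, 4066 higher and 3022 lower in PEO4, so a call by itself did not set a cluster apart from the genome. HOXD was 2.12-fold higher in PEO4 (log2 1.09 ± 0.14, SE, n = 3 against 3, edgeR adjusted p = 2.59e-06), a difference above that of 98.2% of features. HOXB was 1.56-fold higher (log2 0.64 ± 0.15, edgeR adjusted p = 0.0016). HOXA was at 0.25 ± 0.16 (edgeR adjusted p = 0.309) and HOXC at 0.28 ± 0.19 (edgeR adjusted p = 0.361) on the log2 scale. The last pair turned sign with a GC offset per library, to -0.14 for HOXA and -0.16 for HOXC, while HOXD kept 0.75 and HOXB 0.35, both still called.

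Against windows of the same GC content HOXD and HOXB stayed higher in untreated PEO4, while the small differences of HOXA and HOXC changed sign. Each cluster's reads were divided by the number expected from windows elsewhere in the genome in the same 1-point class of GC, from 3149778 windows. On this log2 scale HOXD was at -0.65 ± 0.07 (SD, n = 3) in untreated PEO1 and at 0.14 ± 0.14 in untreated PEO4. HOXB was at 0.31 ± 0.09 and 0.68 ± 0.05. Neither pair of groups overlapped, which in the exact permutation test gives p = 0.1, the smallest value that 3 against 3 libraries allow. HOXA was at -0.78 ± 0.09 and -0.88 ± 0.05 and HOXC at 0.36 ± 0.10 and 0.25 ± 0.05, and both pairs overlapped (two-sided exact permutation p = 0.2 and 0.3). From PEO1 to PEO4 the HOXA mean thus differed by -0.09 and the HOXC mean by -0.10, where the log2 levels as counted differed by 0.20 and 0.24. HOXA took 0.467 to 0.625 of the reads expected from its GC content in the 15 libraries, while HOXC took 1.07 to 1.44 times as many.

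Averaged over both sides, the DNA around each cluster had nearly the same mean level as the cluster itself. At matched GC the flanks of HOXA were at -0.78 ± 0.02 in untreated PEO1 and -0.81 ± 0.02 in untreated PEO4 (log2, SD, n = 3), those of HOXC at 0.31 ± 0.05 and 0.25 ± 0.02, and those of HOXD at -0.76 ± 0.01 and 0.06 ± 0.03. The low level of HOXA and the difference between the lines at HOXD were thus also found in the CpG-poorer DNA up to 500 kb away. The flanks of HOXB were at 0.24 ± 0.05 and 0.57 ± 0.03. In untreated PEO4 the latter averages unlike sides, 0.78 to 1.05 in steps at lower coordinates and 0.12 to 0.19 at higher ones. The cluster minus its flanks, both at matched GC, lay between -0.03 and 0.14 in the 15 libraries when the 4 clusters were pooled. Singly it ranged from -0.28 to 0.09 for HOXA, -0.02 to 0.18 for HOXB, -0.11 to 0.24 for HOXC and -0.14 to 0.18 for HOXD. Between the untreated lines this difference overlapped for every cluster: it changed by -0.06 for HOXA, 0.04 for HOXB, -0.05 for HOXC and -0.03 for HOXD from PEO1 to PEO4. Copy number of these regions in the lines was not measured in these libraries and cannot be told apart here from other causes of a regional level.

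Steps of 100 kb across the flanks showed how far each level reached. From PEO1 to PEO4, untreated and at matched GC, all 10 steps around HOXD were higher by 0.71 to 0.91 on the log2 scale, beside 0.79 for the cluster. The 10 steps around HOXA ranged from -0.27 to 0.13 and those around HOXC from -0.17 to 0.06, each beside a cluster value of about the same size, -0.09 and -0.10. HOXB stood at a border. The 5 steps at lower coordinates were higher in PEO4 by 0.49 to 0.70, and the 5 steps at higher coordinates differed by -0.05 to 0.12. When GC was matched within chromosome 17 alone, the HOXB difference turned to -0.05, an alternative that divides out whatever the rest of the chromosome shares.

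**Figure D2:**
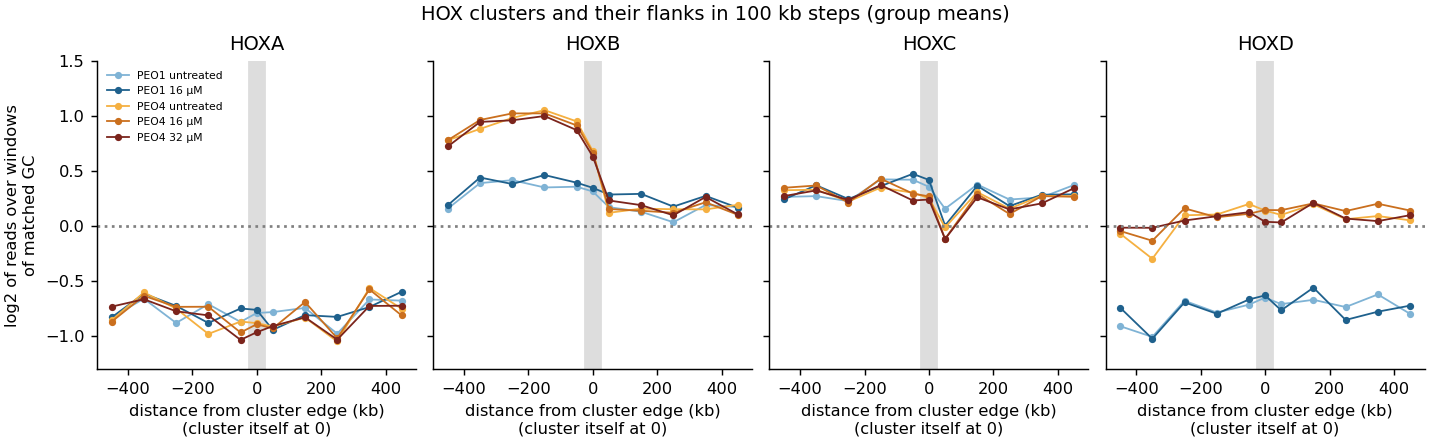
Log2 of reads over windows of matched GC in 100 kb steps, with lower coordinates at the left, and in the cluster itself, drawn at 0 on a grey band; each line is the mean of 3 libraries of a group. The untreated PEO4 line runs 0.71 to 0.91 above the untreated PEO1 line in all 10 steps at HOXD, and at HOXB 0.49 to 0.70 above it in the 5 steps at lower coordinates.

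Within HOXB the border could be placed inside the cluster. In blocks of 10 windows, the first 15 blocks had a log2 ratio of PEO4 to PEO1, over all libraries of each line, of 0.32 to 0.78, and the last 8 blocks of -0.20 to 0.30. The first piece, 150 windows and 135.1 kb ending at 46735300, holds the starts of 9 genes, HOXB1 to HOXB9. The second, 83 windows from 46735201, holds the start of HOXB13, a posterior HOX gene best known from prostate, which lies apart from the other HOXB genes. As the split was chosen after the profile was seen, its values are a description.

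At matched GC the first piece of HOXB was above the second by 0.38 to 0.55 in the 3 untreated PEO4 libraries and by -0.14 to 0.03 in the 3 untreated PEO1 libraries, on the log2 scale. Treated libraries followed their line. The difference was 0.29, 0.05 and 0.04 in PEO1 at 16 µM, 0.75, 0.44 and 0.49 in PEO4 at 16 µM, and 0.63, 0.28 and 0.55 in PEO4 at 32 µM. The ranges of the lines met at PEO1 16 µM replicate 1 and PEO4 32 µM replicate 2. The second piece alone was at 0.33 ± 0.09 in untreated PEO1 and 0.35 ± 0.07 in untreated PEO4 (SD, n = 3), and the first at 0.30 ± 0.11 and 0.82 ± 0.05, so the higher HOXB level of PEO4 lay in the piece that carries HOXB1 to HOXB9.

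**Figure D3:**
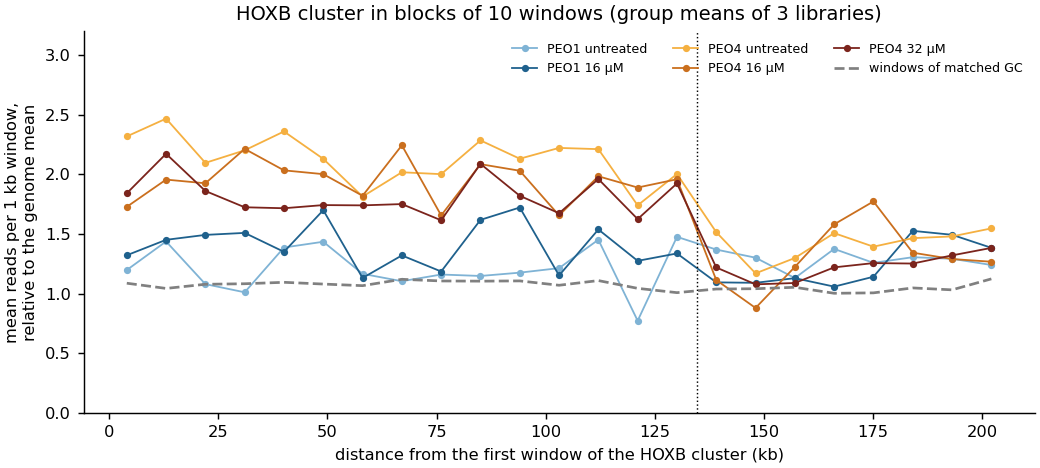
Mean reads per 1 kb window relative to the genome mean along the HOXB cluster, in blocks of 10 windows, against distance from its first window in kb; each line is the mean of 3 libraries, the dashed line is the level of windows of matched GC and the dotted line marks the split. Over all libraries of a line, PEO4 blocks lie between 1.75 and 2.20 before the split and between 1.04 and 1.47 after it, where PEO1 blocks lie between 1.13 and 1.42.

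The central comparison of the study asked whether cisplatin changed the reads of the clusters over the untreated background. No HOX cluster was called at either dose in either line by edgeR, where 0% of the 28192 features were called in each of the 6 comparisons that involve cisplatin; at an unadjusted p under 0.05 there were 875 features for PEO1 at 16 µM, 602 for PEO4 at 16 µM and 2621 for PEO4 at 32 µM, and DESeq2 called no cluster in these 6 either. In PEO1 the 4 clusters were higher after 16 µM by log2 0.13 for HOXB to 0.24 for HOXC, with SEs of 0.14 to 0.19. Those values rested on 1 library, since without PEO1 16 µM replicate 1, the library with the strongest GC trend, they were -0.02 for HOXA, -0.06 for HOXB, -0.03 for HOXC and 0.04 for HOXD. In PEO4 they were lower, by -0.12 to -0.15 after 16 µM and by -0.21 to -0.23 after 32 µM, with SEs of 0.13 to 0.19 at both doses. Per library, HOXA was the cluster whose treated and untreated PEO4 levels did not overlap at 16 µM, 0.478, 0.607 and 0.605 against 0.629, 0.609 and 0.633 (two-sided exact permutation p = 0.1), by a margin smaller than the SD of the treated libraries.

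At matched GC these shifts shrank to the size of the replicate spread. In PEO1 the change after 16 µM was 0.01 for HOXA, 0.03 for HOXB, 0.05 for HOXC and 0.03 for HOXD on the log2 scale. In PEO4 it was -0.01, -0.02, 0.02 and 0.01 after 16 µM and -0.09, -0.05, -0.03 and -0.11 after 32 µM, in the same order. Treated and untreated libraries overlapped in each of these 12 cases, with SDs within groups of 0.03 to 0.14.

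The response of PEO4 at 32 µM minus that of PEO1 at 16 µM, the doses of similar platinum load, had the same sign in the 4 clusters. As counted it was -0.44 ± 0.22 for HOXA, -0.36 ± 0.21 for HOXB, -0.45 ± 0.27 for HOXC and -0.41 ± 0.19 for HOXD (log2, SE). None passed the limit (edgeR adjusted p = 0.602, 0.602, 0.605 and 0.602), although HOXD had an unadjusted p of 0.046 in edgeR, as did 7.73% of all features under 0.05. With a GC offset per library the values were between -0.07 and -0.01. At matched GC per library the HOXD responses did not overlap, 0.03 ± 0.05 in PEO1 and -0.11 ± 0.10 in PEO4 (SD, n = 3, exact permutation p = 0.1), and those of HOXA, HOXB and HOXC did. Each response was taken from the mean of the untreated libraries of its line, held fixed. These SDs, the overlap and the p thus leave out the untreated spread, which for HOXD was 0.07 in PEO1 and 0.14 in PEO4 (SD, n = 3). Taken as pairs of the same replicate number, the HOXD differences were -0.05, -0.31 and -0.04, those of HOXB and HOXC were also below 0 in each of the 3 pairs, and those of HOXA were -0.20, -0.20 and 0.08. As counted, the pairs lay below 0 in 3 of 3 for all 4 clusters (two-sided exact sign flip permutation p = 0.25, the smallest that 3 pairs allow). At the equal dose of 16 µM the differences as counted ran from -0.27 ± 0.21 for HOXB to -0.39 ± 0.27 for HOXC, again with no call, and at matched GC from -0.05 for HOXB to -0.01 for HOXD with overlapping responses. Between 16 and 32 µM in PEO4 the clusters differed by -0.06 to -0.11, less than the SEs of 0.13 to 0.19.

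The ratio of the pooled clusters to their flanks as counted followed the GC trend of the libraries. Of the 5 libraries with the lowest GC trend, 4 were among the 5 with the lowest ratio of clusters to flanks, and of the 5 with the highest trend, 4 were among the 5 with the highest ratio. Untreated PEO4 libraries had trends of 0.57, 0.36 and 0.59 and untreated PEO1 libraries of -0.33, 0.28 and 0.19. The level of HOXD did not keep to this order. PEO1 16 µM replicate 1, with the highest trend of 0.61, had HOXD at 0.778, and PEO4 16 µM replicate 1, with a trend of -0.21, had it at 1.06. What set the trend in each library was not tested.

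**Figure D4:**
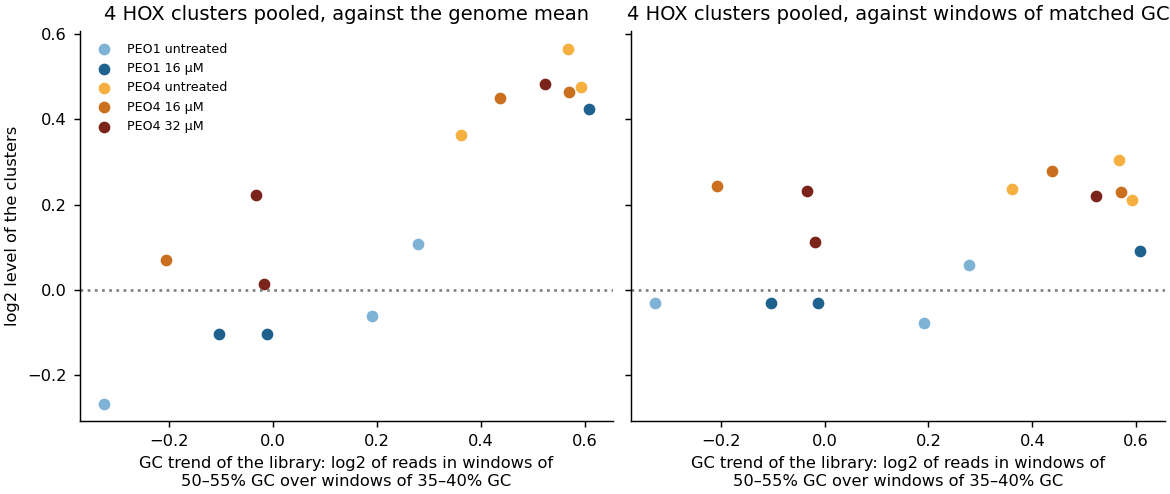
Pooled HOX level of each library (1 point each, coloured by group) against its GC trend, the log2 ratio of reads in windows with 50 to 55% GC over 35 to 40% GC, as counted and relative to matched windows, both on the log2 scale. At matched GC the 6 PEO1 libraries lie between -0.08 and 0.09 and the 9 PEO4 libraries between 0.11 and 0.31.

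Within the clusters the CpG-dense windows were compared with the CpG-poor ones, to see whether island DNA took up reads differently from the DNA between islands. Windows were split at the median CpG count of their cluster, which was 29 in HOXA, 15 in HOXB, 23 in HOXC and 25 in HOXD, giving 331 dense and 302 poor windows. The dense windows averaged 46.3 CpG and 55.7% GC, the poor ones 10.9 CpG and 45.2% GC. The log2 ratio of dense to poor windows in untreated PEO1 was -0.52, -0.25 and -0.36, and after 16 µM it was 0.27, -0.12 and -0.07, so that the 2 groups did not overlap (mean change 0.41). By cluster the mean change was 0.56 in HOXA, 0.38 in HOXB, 0.47 in HOXC and 0.28 in HOXD. The groups of HOXB and HOXC did not overlap, and those of HOXA and HOXD did. In PEO4 the ratio was -0.01, -0.17 and 0.06 untreated, -0.32, 0.02 and -0.05 after 16 µM, and 0.23, -0.17 and 0.24 after 32 µM, and each treated group overlapped the untreated one. Among the clusters in PEO4, HOXD alone had libraries at 32 µM that overlapped neither other group. Its ratio was -0.20, -0.04 and 0.07 in untreated PEO4, -0.54, -0.14 and -0.09 after 16 µM, and 0.24, 0.12 and 0.42 after 32 µM (two-sided exact permutation p = 0.1 for each). The ratio was examined in 5 regions, the clusters and their pool, and in 7 comparisons, as counted and at matched composition. At a smallest possible p of 0.1, some groups without overlap are likely among so many without any effect.

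These changes shrank or grew with the base composition that was matched. The change in PEO1 was 0.17 when dense and poor windows were each divided by their expectation at matched GC, still without overlap, and 0.05, with overlap, when both GC and CpG count were matched, an alternative chosen after seeing the data. In PEO4 at 32 µM the change was 0.14 as counted, 0.21 at matched GC and 0.10 at matched GC and CpG, with overlap in each. For HOXD the change at 32 µM was 0.32 as counted, 0.41 at matched GC, both without overlap, and 0.25 at matched GC and CpG, with overlap. In HOXC both doses gave PEO4 groups without overlap at matched GC, with changes of 0.17 and 0.26, where the groups as counted overlapped. They also did not overlap at matched GC and CpG, with changes of 0.15 and 0.17, nor did those of HOXB in PEO1, with 0.11. For HOXD at matched GC and CpG, the PEO4 groups at 16 and 32 µM did not overlap (0.32), nor did the responses of PEO1 at 16 µM and PEO4 at 32 µM, which differed by 0.42. Between the untreated lines the ratio was higher in PEO4 by 0.34 as counted and differed by -0.02 at matched GC.

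**Figure D5:**
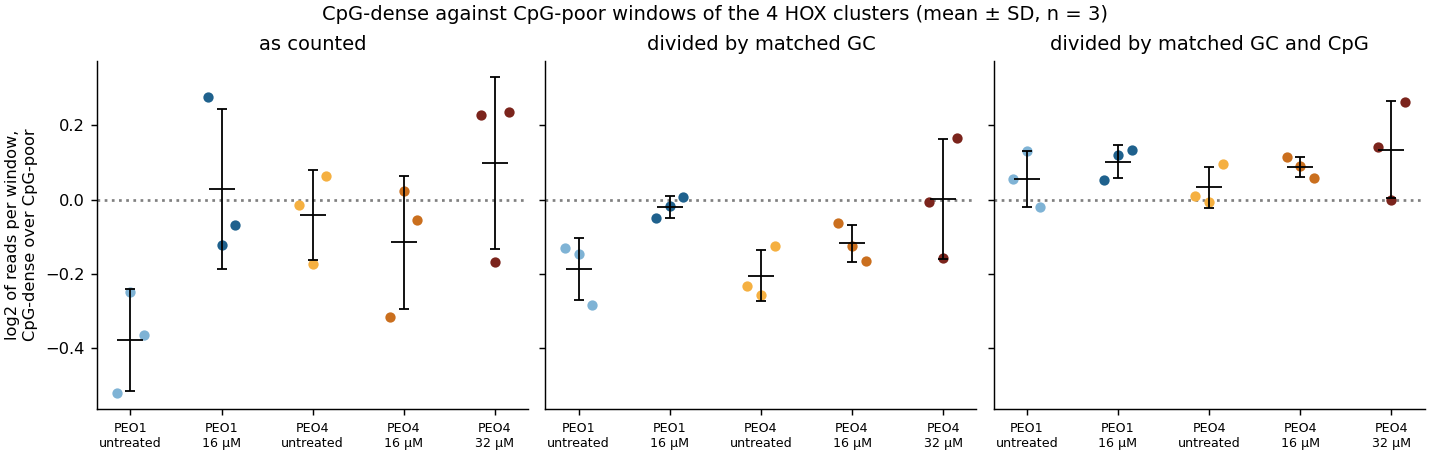
Log2 ratio of CpG-dense to CpG-poor windows of the HOX clusters per library, pooled over clusters, as counted and after division by windows of matched composition; points are libraries, 3 per group, and black marks the group mean ± SD. The PEO1 groups separate as counted (-0.52 to -0.25 untreated, -0.12 to 0.27 at 16 µM), and the difference shrinks from 0.41 to 0.05 once GC and CpG are matched.

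The most GC-rich windows of the clusters were read less than those of middling GC. Relative to the genome mean, HOX windows of 40 to 50% GC were at 1.23 ± 0.17 (SD over 15 libraries, as for the values that follow), those of 50 to 60% at 1.27 ± 0.30, and those of 60 to 70% at 0.862 ± 0.307. Genome windows of the same classes were at 1.03 ± 0.05, 1.12 ± 0.20 and 0.985 ± 0.261. By annotation, the 90 windows near a transcription start, which averaged 58.1% GC and 55.7 CpG, were at -0.07 ± 0.21 against matched GC on the log2 scale, 124 exon windows at 0.02 ± 0.11, 333 intron windows at 0.21 ± 0.15 and 86 intergenic windows at 0.21 ± 0.16. Start windows were thus the lowest class in the mean, with ranges over libraries that overlapped those of the others.

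Single genes were followed at the windows whose midpoint lies within 1000 bases of the 5' boundary of the gene in the annotation, 2 or 3 windows per gene. For 12 of the 39 HOX genes this boundary, set by the most 5' transcript, lies more than 1000 bases from the start of the canonical transcript, and values there were computed as well. A median of 4 to 42 reads per gene and library stood behind these values, so that only very large differences could be detected for 1 gene. HOXA genes had the lowest starts, with a median level over untreated libraries of 0.555 for 11 genes, and HOXB genes the highest, 1.60 for 10 genes. HOXC was at 0.921 for 9 genes and HOXD at 0.830 for 9. HOXB3 and HOXB6, whose boundaries fall in the same windows, share 1 set of counts.

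As examples of start sequences, the RefSeq promoters of HOXD8 and HOXA2 are printed 5' to 3' with each CG in capitals, since they had the most and the fewest CG steps among the genes named below that have an entry. Both match GRCh37 exactly, HOXD8 at chr2:176994183-176994482 on the plus strand and HOXA2 at chr7:27142253-27142552 on the minus strand. Of the 39 HOX genes, 20 matched the RefSeq table.
HOXD8: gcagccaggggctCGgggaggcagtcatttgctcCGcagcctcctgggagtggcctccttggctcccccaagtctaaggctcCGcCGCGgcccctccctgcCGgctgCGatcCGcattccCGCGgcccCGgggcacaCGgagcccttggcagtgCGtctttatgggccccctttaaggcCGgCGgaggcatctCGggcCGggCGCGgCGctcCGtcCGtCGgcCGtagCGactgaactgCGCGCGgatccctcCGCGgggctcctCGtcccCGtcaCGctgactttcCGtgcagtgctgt
HOXA2: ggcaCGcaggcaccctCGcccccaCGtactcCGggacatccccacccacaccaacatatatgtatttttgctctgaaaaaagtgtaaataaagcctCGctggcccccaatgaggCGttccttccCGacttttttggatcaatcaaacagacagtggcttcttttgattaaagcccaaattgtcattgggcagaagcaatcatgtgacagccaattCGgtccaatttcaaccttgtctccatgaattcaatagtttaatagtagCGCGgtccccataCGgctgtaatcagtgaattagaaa

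HOXD8 held 34 CG steps in these 300 bases, a number reached by 15.6% of 35116 promoters of the same length, and HOXA2 held 11, reached by 54.7%. HOXD8 had 79 GG and CC steps on both strands, reached by 20.2% of promoters, and HOXA2 43, reached by 69.7%. The median over the HOX promoters in the table was 22.5 CG steps against 14 over all promoters. The 20 HOX promoters with an entry were thus richer in CpG. With 52.5 against 58 GG and CC steps in the median, these 20 were not richer in the preferred target of cisplatin. The other HOX genes, among them HOXB3, HOXB4, HOXB8, HOXC6 and HOXC13, are not covered by these medians.

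Between the untreated lines most HOX starts were higher in PEO4 as counted. These levels were not matched for GC, of which HOX starts had a median of 58.15% against 54.85% over all starts. At matched GC the HOXA and HOXC clusters themselves differed by -0.09 and -0.10 from PEO1 to PEO4. The mean level was higher in PEO4 at 35 of 39 starts: 9 of 11 in HOXA, 10 of 10 in HOXB, 7 of 9 in HOXC and 9 of 9 in HOXD. Over all 20090 starts this held for 13266, or 66%, and their median level was 0.743 in PEO1 and 0.939 in PEO4. In the fit, which normalises the libraries, 28 of 35 tested HOX starts were above 0, and 49.4% of all starts tested. The median HOXD start was at 0.275 in PEO1 and 1.25 in PEO4, and the median HOXB start at 1.11 and 2.06. No HOX start was called in edgeR, where 0.407% of the 18165 starts tested were called, 56 higher and 18 lower in PEO4, and 35 of the 39 HOX starts passed the count filter, 4 in HOXA being too low. At an unadjusted p under 0.05 there were 5 HOX starts, all of them in HOXD and higher in PEO4, that is 5 of 35 tested, beside 1973 of all 18165. At canonical starts the same number, 35 of 39, were higher in PEO4, and HOXD11, a posterior gene, was called there: it had 5, 2 and 2 reads in untreated PEO1 and 23, 53 and 45 in untreated PEO4 (log2 3.05 ± 0.74, SE, edgeR adjusted p = 0.0397), as were 0.491% of all 18123 canonical starts tested. At the boundary windows of HOXD11, 3064 bases from its canonical start, the difference was 0.60 ± 0.64 (log2, SE, edgeR adjusted p = 0.816). The canonical starts were added as an alternative after seeing the data.

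HOXD8, a central gene of its cluster, had 4, 11 and 2 reads in untreated PEO1 and 26, 32 and 33 in untreated PEO4, without overlap (log2 1.82 ± 0.59, SE, edgeR adjusted p = 0.188). HOXD10, a posterior gene active in the limb, had 2, 13 and 2 against 42, 44 and 52 (log2 2.43 ± 0.70, edgeR adjusted p = 0.117). Its boundary windows lie 7988 bases from the canonical start, where the difference was 0.73, and DESeq2 called the boundary windows at an adjusted p of 0.042, with 1.55% of all starts. HOXD3, a gene of the anterior end, had 4, 3 and 8 against 55, 26 and 25 (log2 2.19 ± 0.74, edgeR adjusted p = 0.203), and 0.82 at its canonical start. HOXD9 and HOXD4 completed the 5, at 1.72 ± 0.68 and 1.39 ± 0.68 on the log2 scale (edgeR adjusted p = 0.324 and 0.458). At each of the 5 the untreated PEO4 mean was at least 0.801 of the genome mean and the PEO1 mean at most 0.359.

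After cisplatin no HOX start was called in any of the 6 comparisons, nor was any of the 18165 starts (0%); unadjusted p-values under 0.05 were found at 1193 starts for PEO1 at 16 µM, 443 for PEO4 at 16 µM and 588 for PEO4 at 32 µM. Among HOX starts these were 2 of 35 in PEO1, HOXD8 higher (log2 1.29 ± 0.60) and HOXA2 lower (-1.61 ± 0.75), and 1 of 35 in PEO4 at 16 µM, HOXA6 (-2.64 ± 0.91), with edgeR adjusted p-values of 0.742, 0.742 and 0.9999. In the differences of response they were HOXA6 at both doses and HOXD3 at 16 µM (-2.31 ± 1.01, edgeR adjusted p = 0.928, and -0.18 at its canonical start), and between 16 and 32 µM in PEO4 HOXC9 (1.09 ± 0.54, edgeR adjusted p = 0.9994, and -0.11 at its canonical start). That is 1 of 35 HOX starts at 32 µM, beside 4.74% of all starts tested, and 2 of 35 at 16 µM, beside 5.07%. Between 16 and 32 µM in PEO4 it is 1 of 35, beside 3.58%. HOXD8 had 24, 12 and 21 reads in PEO1 after 16 µM, above the untreated 2 to 11, and 27, 43 and 45 in PEO4 after 16 µM. HOXA2, which helps pattern the hindbrain, had 20, 13 and 9 reads untreated and 7, 1 and 11 after 16 µM in PEO1, which overlap as raw reads. As levels, which take depth into account, its means were 0.657 ± 0.229 untreated and 0.275 ± 0.206 after 16 µM (SD, n = 3).

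HOXA6 had the largest difference in response. Its boundary windows held 5, 5 and 3 reads in untreated PEO1 and 18, 15 and 21 after 16 µM, and 41, 8 and 17 in untreated PEO4, 3, 1 and 6 after 16 µM and 6, 7 and 9 after 32 µM. The 2 lines moved in opposite directions without overlap at 16 µM, and the response differed by -4.23 ± 1.26 on the log2 scale (edgeR adjusted p = 0.919). Limma on log2 ratios to untreated, the kind of test the study used, called it at an adjusted p of 0.015, with 91 of the 18165 starts, or 0.501%. There the mean of the untreated libraries of each line was held fixed. The untreated spread, 41, 8 and 17 reads in PEO4, was thus left out of its error, whereas the edgeR fit includes it. The canonical start of HOXA6, 2829 bases away, gave 0.35 for the same comparison, so the difference was not found at the principal start.

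The other genes named by rule had the highest or lowest start of their cluster or, for HOXB8 and HOXC6, the smallest p in the difference of response. The ranks given here are those of the boundary windows. HOXB3, which acts in the hindbrain and shares these windows with HOXB6, was the highest of HOXB and of all 39. It had 26 to 40 reads in untreated PEO1 and 52 to 70 in untreated PEO4. The canonical start of HOXB3, 14671 bases away, held 12 to 26 and 40 to 59 reads. Its level there was 0.993 and 1.97, beside 1.58 and 2.51 at the canonical start of HOXB6. HOXB4, a gene known in blood stem cells, was the lowest of HOXB, with 12 to 32 and 32 to 51 reads. HOXB8 had 6 to 27 and 31 to 73. HOXC4 was the highest of HOXC, with 31 to 52 reads in untreated PEO1 and 35 to 76 in untreated PEO4. HOXC13, needed for hair and nails, was the lowest, with 7 to 28 and 18 to 41, and HOXC6 had 16 to 37 and 23 to 60. The boundary windows of HOXC4 and HOXC6 lie 36904 and 37816 bases from their canonical starts. At the canonical starts HOXC4 held 8 to 24 and 25 to 39 reads, and HOXC6 6 to 13 and 18 to 48. HOXA4, the lowest of HOXA, held 0 to 10 and 0 to 5 reads and was not tested. At the boundary windows, none of the other 6 genes named here by rule had an unadjusted p under 0.05 in any of the 7 comparisons.

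Genes that act with or like the HOX genes were counted at their starts in the same fit, and none of them was called in any of the 7 comparisons, where at most 0.407% of all starts were. The lists held 9 HOX cofactors such as MEIS1 (9 tested), 13 HOX-like homeobox genes (12 tested), 35 Polycomb and Trithorax regulators such as EZH2 and KMT2A (31 tested), 82 other developmental regulators known as Polycomb targets, such as PAX6 and GATA4 (74 tested), and 30 always transcribed genes with CpG island starts, such as ACTB (27 tested). Between the untreated lines the median log2 difference from PEO1 to PEO4 was 0.57 for the tested HOX starts, 0.61 for the HOX-like genes, 0.62 for the cofactors, 0.37 for the regulators, 0.18 for the other Polycomb targets and -0.15 for the always transcribed genes, beside -0.01 for all starts. For the response of PEO4 at 32 µM minus that of PEO1 at 16 µM the medians were -0.02, -0.98, -0.19, -0.40, -0.24 and -0.12 in the same order, beside -0.01 for all starts. HOX-like genes, 1 of 12 of which was above 0, had the lowest median and the HOX genes, 16 of 35 above 0, a median near that of all starts. None of these medians was matched for GC. The median GC of the lists ran from 55.56% for the always transcribed genes to 62.95% for the cofactors, against 54.85% over all starts. Untreated PEO4 libraries had GC trends of 0.36 to 0.59 and untreated PEO1 libraries of -0.33 to 0.28. The part of GC in the medians was not tested.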

How the data were processed

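Platinum adducts were measured by Pt-exo-seq in 15 libraries of PEO1 and PEO4, grouped by the line and dose in the sample labels. The deposited values are raw counts of reads per window of 1000 bases stepped by 900. For these the authors used BBDuk for trimming and bowtie2 for alignment of single reads to hg19, left out blacklisted regions and dropped duplicates by Picard (versions not given in the sources used here); without molecular identifiers, reads are not independent molecules. Totals, in units of 1e6 reads, were 27.7 to 56.6 per library, so that a library held 8.79 to 18.0 reads in a mean window, and values for single windows or starts are imprecise.

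Cluster windows were summed and tested among 100 kb bins with a mean count of at least 50, and start windows within 1000 bases among protein-coding genes with a mean count of at least 10, by the quasi-likelihood test of edgeR 4.0.16 (R 4.3.3, TMM, Benjamini-Hochberg limit 0.05, all 15 libraries). Both fits were tested on simulated data, where the fit over starts was asked to recover very large changes only, so that the absence of a call at a start says little. Per library, log2 ratios to the genome mean, to flanks of 500 kb and to windows in the same 1-point class of GC were compared by exact two-sided permutation (Python, numpy 2.4.6, pandas 2.3.3, scipy 1.17.1), where 3 against 3 libraries allow no p below 0.1. DESeq2 1.42.0, limma 3.58.1 and other filters, flanks and matches were tried as alternatives. Genes named were, per cluster, those with the highest and lowest untreated level and the smallest p in the response difference at 32 against 16 µM; starts with an unadjusted p under 0.05 and HOXD11 were named after their values were seen. Windows named were those with the highest mean and with the most GG and CC. The members and lists were chosen with earlier results of these data known. Same-numbered libraries deviated together (r = 0.64, 0.40 and 0.26) only between the 32 µM libraries of PEO4 and the treated PEO1 libraries; where this pairing comes from is not stated.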

Additional observations from a re-analysis of the deposited data

Results flagged for a closer look

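In 3 comparisons of HOXD, every treated library of PEO1 lay above the mean of the untreated ones and every treated library of PEO4 below it. They were picked by a screen for such opposite sides. An exact permutation p of 0.1, the smallest that 3 against 3 libraries allow, follows from that rule. The screen covered 5 regions, the clusters and their pool, at both PEO4 doses. It took levels, ratios to flanks, to matched GC and to both, and dense to poor windows. How many such cases arise without any effect was not tested. The mean of the untreated libraries was held fixed, and treated and untreated libraries of each line overlapped. As ratios to the flanks, the lowest treated PEO1 library was at 0.008, the untreated mean at 0.007 and the untreated libraries at -0.28 to 0.16. With cluster and flanks both at matched GC, the lowest treated PEO1 library was at 0.106 and the untreated mean at 0.104. The ratio of HOXD to its flanks as counted changed by 0.18 ± 0.27 (log2, SD, n = 3) in PEO1 after 16 µM and by -0.19 ± 0.17 in PEO4 after 16 µM, a difference of -0.37. Against PEO4 after 32 µM, at -0.29 ± 0.25, the difference was -0.47. With HOXD and its flanks both taken at matched GC, the changes were 0.03 ± 0.03 in PEO1 and -0.12 ± 0.10 in PEO4 after 32 µM, a difference of -0.14. At matched GC the HOXD difference at the equal dose of 16 µM was -0.05, with overlap. Responses that did not overlap between the lines were not particular to HOXD: as ratios to the flanks they were also found for HOXA (-0.43 at 32 µM and -0.37 at 16 µM), for HOXB at 32 µM (-0.17) and for the pooled clusters (-0.28 and -0.25). The GC trend of the libraries moved with the ratios as counted, and its part in them was not tested.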

How the results depend on the processing

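HOXD and HOXB stayed higher in untreated PEO4 and past the adjusted limit under every alternative run of the count test (log2 0.75 to 1.15 and 0.35 to 0.75, libraries left out included), and no cluster was called after cisplatin in any. HOXC was called between the untreated lines (0.28, edgeR adjusted p = 0.0447) when only the compared groups were fitted. The replicate block changed no call of a HOX cluster or start (HOXD 1.08, HOXB 0.64 between the untreated lines).

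A GC offset turned the sign of small changes as counted. In PEO4 after 16 µM they became 0.029 for HOXA, 0.0038 for HOXB, 0.048 for HOXC and 0.048 for HOXD, and after 32 µM 0.0070 for HOXC. The response difference at 16 µM became 0.0032 for HOXA and 0.026 for HOXC, and the difference between untreated lines -0.14 for HOXA and -0.16 for HOXC. With the replicate block and GC offset the same values were 0.028, 0.0045, 0.050, 0.050 and 0.0047, then 0.0026, 0.032 and, for HOXD, 0.0019, then -0.14 and -0.16. Leaving out 1 library gave -0.020 to 0.31 for HOXA, -0.063 to 0.24 for HOXB and -0.034 to 0.36 for HOXC in PEO1 after 16 µM, -0.24 to 0.0038 for HOXC in PEO4 after 16 µM, and -0.19 to 0.054 for HOXA, -0.27 to 0.081 for HOXC and -0.25 to 0.0095 for HOXD between 16 and 32 µM in PEO4.

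Matching GC within the chromosome gave -0.053 for HOXB and 0.16 for the pooled clusters between the untreated lines. The pooled ratio of dense to poor windows at matched GC changed by 0.17 in PEO1 after 16 µM and 0.087 in PEO4 after 16 µM, its response difference was 0.040 at 32 µM and -0.079 at 16 µM, and between the untreated lines it was -0.018, with -0.094 for HOXA and -0.11 for HOXC. At matched GC and CpG, chosen after seeing the data, these were 0.046 for PEO1, 0.055 and 0.0082 for the responses (HOXC 0.047), and -0.023, -0.035 and -0.14 between the lines. Of HOX starts, 1 in place of 0 was called by limma on log2 ratios (HOXA6, -3.22), by DESeq2 (HOXD10, 2.44) and, with canonical starts, also chosen after seeing the data, by edgeR (HOXD11). The limma fit leaves out the spread of the untreated libraries. Canonical starts also turned HOXA6 to 0.35 in the response difference at 16 µM and HOXC9 to -0.11 between 16 and 32 µM in PEO4. The cause was not tested. Leaving the highest windows out of the total rescales clusters and genome alike and cannot change a ratio between them.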
